A study of Homo sapiens with 10 samples.

Results

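The CTCF ChIP-seq peaks described here were found in HEK-293T cells, a human embryonic kidney line, at all 3 levels of CGGBP1. In control cells they overlapped a called peak of a repressive histone mark and none of H3K4me3. The members were chosen by peak overlap: a peak of the CTCF list of control cells (CT) had to overlap a peak of CGGBP1-depleted cells (KD) and a peak of CGGBP1-overexpressing cells (OE) by at least 1 bp, to overlap an H3K9me3 or H3K27me3 peak of CT, and to overlap no H3K4me3 peak of CT. Of 42978 CT peaks on unmasked hg38, 18487 overlapped both a KD and an OE peak and are called constitutive. Of these, 3048 overlapped a repressive mark, 2441 of the 3048 also overlapped H3K4me3, and 607 were left as members. H3K9me3 alone chose 348 members, H3K27me3 alone 67, and both marks 192.

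CT cells carried a lentivirus with a non-targeting shRNA. KD cells carried shRNA lentiviruses against 4 regions of the CGGBP1 open reading frame. Both were selected with puromycin. OE cells carried a lentivirus that expresses CGGBP1. CTCF was measured in CT, KD and OE and the histone marks in CT and KD. A single input library was made, and the sources used here do not say which of these cells it came from. Each condition is 1 library, so no difference between conditions has a replicate check and no p-value is given.

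CTCF is a zinc finger protein that binds a conserved sequence motif, anchors chromatin loops and can act as an insulator between active and silent chromatin. CGGBP1 is a small nuclear protein that binds GC-rich and repetitive DNA. H3K9me3 is the mark of constitutive heterochromatin, which covers centromere-near satellites and many retrotransposons, H3K27me3 is laid down by Polycomb complexes, and H3K4me3 marks active promoters. Alpha satellite, the tandem repeat of human centromeres, has a repeat unit of 171 bp, and some of its units carry the CENP-B box, the site bound by centromere protein B. L1 elements are retrotransposons with a shorter and a longer open reading frame, and most of their genomic copies are truncated at the 5′ end.

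By their sequence, the members were mostly repeats. Of all known bases in the 607 members, 88.8% lay in 24-mers that occur at least 10 times in hg38, against 8.57% in the 8651 constitutive CT peaks without any of the 3 marks, 31.2% in the 9229 constitutive CT peaks at H3K4me3 and 97.1% in the 1464 CT peaks that met the histone part of the rule and were not constitutive. In 471 members every base was repeated and in 56 none was. The members fell into 4 sequence classes. Tandem repeats with a 171 bp period made up 375 members, or 61.8%. A further 146 members, or 24.1%, aligned to an L1-like element, 21 lay in other repeats, and 65 members, or 10.7%, had less than 0.5 of their bases in repeated 24-mers and are called low-repeat. Among shifts of 50 to 400 bases of the sequence around a member against itself, those of 171 and 340 bases matched best, with mean identities of 0.415 and 0.410 over all members. A member was called tandem when the 2000 bases around its centre matched themselves at a shift of 169 to 173 or 338 to 342 bases with an identity of at least 0.4. The median identity was 0.597 in tandem members and 0.294 in the others, 3 members lay between 0.35 and 0.4 and 13 between 0.4 and 0.45.

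The tandem class is shown by pairs of 171-base stretches from the clusters with the most members. Both stretches of a pair are on the + strand of hg38, and capitals mark the bases that are the same in the pair. The first pair lies within a chr10 member at 40346135 to 40346955, has its stretches 339 bases apart and holds 143 identical bases, or 83.6%. The second pair starts at a chr19 member at 26816966 to 26817259 and runs past its end, has its stretches 341 bases apart and holds 158 identical bases, or 92.4%.
chr10:40346135-40346305 (+): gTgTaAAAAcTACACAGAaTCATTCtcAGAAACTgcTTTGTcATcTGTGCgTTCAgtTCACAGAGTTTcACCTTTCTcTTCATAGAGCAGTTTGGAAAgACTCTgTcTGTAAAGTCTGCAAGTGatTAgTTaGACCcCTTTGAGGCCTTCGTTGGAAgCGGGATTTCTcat
chr10:40346474-40346644 (+): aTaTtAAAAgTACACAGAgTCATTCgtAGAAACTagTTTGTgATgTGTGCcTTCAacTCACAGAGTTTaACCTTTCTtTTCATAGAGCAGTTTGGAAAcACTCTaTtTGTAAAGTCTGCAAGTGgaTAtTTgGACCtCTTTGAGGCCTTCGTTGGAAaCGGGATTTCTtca
chr19:26816966-26817136 (+): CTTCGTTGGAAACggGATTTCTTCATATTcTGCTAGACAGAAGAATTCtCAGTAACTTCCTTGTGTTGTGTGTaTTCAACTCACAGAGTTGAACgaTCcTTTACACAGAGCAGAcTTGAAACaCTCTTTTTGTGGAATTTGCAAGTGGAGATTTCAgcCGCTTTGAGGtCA
chr19:26817307-26817477 (+): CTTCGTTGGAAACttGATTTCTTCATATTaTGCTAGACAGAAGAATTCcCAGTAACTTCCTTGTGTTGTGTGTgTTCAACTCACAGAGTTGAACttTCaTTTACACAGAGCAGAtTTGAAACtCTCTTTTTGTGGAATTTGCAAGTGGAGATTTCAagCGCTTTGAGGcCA
The self-match at 2 unit lengths was the higher one in 211 tandem members and that at 1 unit length in 164. The CENP-B box, searched on both strands as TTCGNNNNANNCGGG, occurred in 251 of the 375 tandem members, or 66.9% (exact 95% interval 61.9 to 71.7), and in none of the 232 other members. Among all constitutive CT peaks 7.49% held it. Tandem repeat peaks held it about as often outside the members as in them, with 65.4% at H3K4me3, 66.4% without a mark and 63.0% among marked peaks that were not constitutive. The difference to the last of these was 3.89 percentage points (95% interval -2.60 to 10.4).

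The L1-like class was defined by an element read from hg38 around the member at chr9:14669370-14669653, where a reading frame of 338 residues is followed after 66 bases by one of 1182 residues. Of the 167 dispersed repeat members, 11 lay beside such a pair of frames, and 146 aligned to the element over at least 150 bases, with a median identity of 97.2%. Their centres ranged from base 384.5 to base 5040, counted from the first base of the shorter frame, with a median of 3944. The longer frame spans bases 1081 to 4626, so most members lay in its later part or after it.

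**Figure D1:**
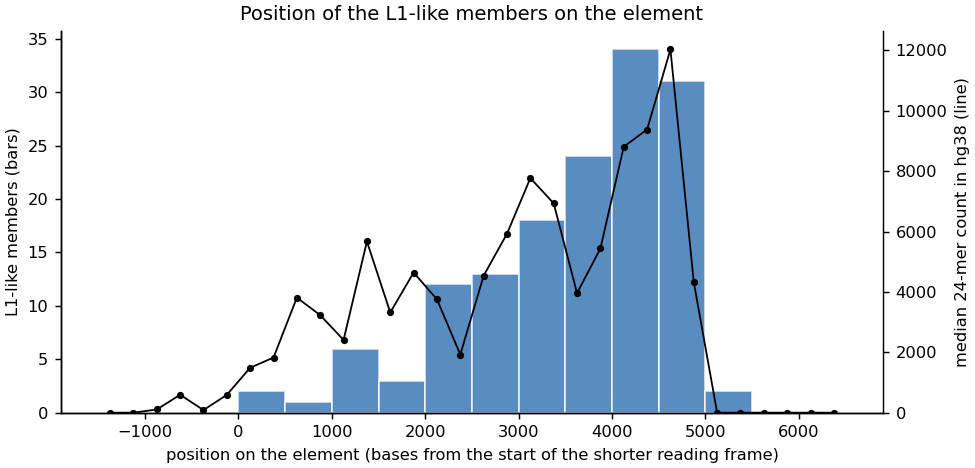
Position of the 146 L1-like members on the element, in bases from the start of the shorter reading frame, as bars of 500 bases (left axis, number of members), and the median number of times that a 24-mer of the element occurs in hg38, per 250 bases (line, right axis). Members accumulated between bases 3500 and 5000, where 24-mer counts rose to a median of 12033 between bases 4501 and 4750.

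Both the members and the genomic copies of the element became more numerous toward its 3′ end. From base 3500 on lay 91 of the 146 members, or 62.3% (exact 95% interval 53.9 to 70.2), against 60.9% of the L1-like constitutive peaks at H3K4me3 and 72.1% of those that were marked and not constitutive. The median count of the element's 24-mers in hg38 was 1490 in its first 250 bases after the start of the shorter frame and 12033 between bases 4501 and 4750. Members on the element's strand numbered 61 and those on the opposite strand 85.

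Across the genome, 590 members lay on chromosomes 1 to 22, X and Y and 17 on other sequences of hg38, of which 5 were alternate loci. Chromosome 10 held 76 members, 66 of them tandem, and these 66 lay between bases 39719988 and 41494621. Chromosome 4 held 56, chromosome 5 held 47 and chromosome 19 held 33, of which 31 were tandem. Chromosome 6 had no tandem member among its 16. The centromere arrays of hg38 are modelled sequences, so a position inside them is a position in the model.

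**Figure D2:**
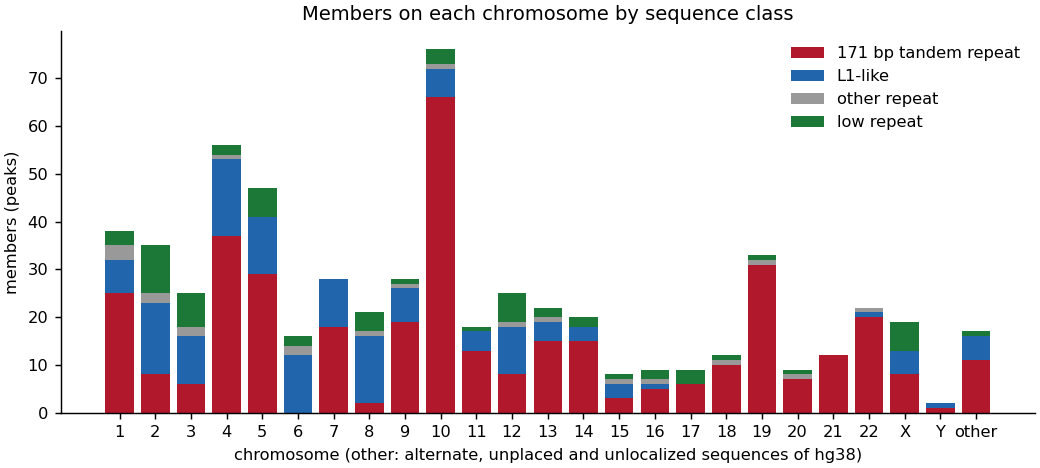
Number of members (vertical axis) on each chromosome of hg38, stacked by sequence class; the last bar holds the 17 members on alternate, unplaced and unlocalized sequences. Chromosome 10 had the most members, 76, of which 66 were tandem repeats, and L1-like and low-repeat members were spread over most chromosomes.

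Few members were close to each other. Joined within 10 kb, they formed 566 clusters, of which 531 held 1 member and the largest held 4. The largest lay in the chr10 array and its members measured 324, 355, 349 and 821 bp in CT. The KD peaks over them measured 263, 944, 510 and 465 bp and the OE peaks 457, 583, 231 and 935 bp, so that no library had the widest peak at all 4. All 4 overlapped H3K9me3 in CT and 1 also H3K27me3, 3 of the 4 overlapped H3K9me3 in KD, and none overlapped input. In the next cluster, at chr10:40223763-40228549, CT peaks of 217 and 354 bp lay under a single KD peak of 1015 bp and a single OE peak of 1086 bp. The members are no independent sequences either: 539 of the 607 shared at least 1 24-mer with another member, among them all 375 tandem members and 145 of the 146 L1-like ones. The median tandem member had 98.9% of its 24-mers in common with other members, and the median low-repeat member had 0%. A median 24-mer of a tandem member occurred 1464.5 times in hg38 and one of an L1-like member 6567.25 times, and on main chromosomes the median tandem member had 25.3% of its 24-mer occurrences on its own chromosome, the median L1-like member 6.35%. The paper states that reads without a unique best placement were left out. Its methods, however, give end-to-end mapping at default settings and name no filter for unique placement. The lists alone do not show how well single copies were resolved.

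The constitutive state differed between classes, as a description of what the rule selected. Of the 835 tandem CT peaks in repressive marks without H3K4me3, 65.3% overlapped a KD peak, 60.6% an OE peak and 44.9% both. Of 963 L1-like ones, 32.6% overlapped KD, 35.0% OE and 15.2% both, so the 3 lists had fewer L1 copies in common than tandem peaks. Of the 92 low-repeat ones, 70.7% overlapped both. The threshold on p for peaks, per the labels, was 0.0025 in CT and KD and 0.005 in OE.

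Peak widths over all members were close in the 3 CTCF libraries. The median width over the members was 274 bp in CT, 269 in KD and 273 in OE, and the KD peak was wider than the CT peak in 308 of 607. L1-like members had medians of 263.5, 248 and 240 bp, with 53 of 146 wider in KD and 47 of 146 wider in OE. Low-repeat members had medians of 293, 334 and 304 bp, with 43 of 65 wider in KD. Widths are set by the threshold and depth of each library too, and the number of reads behind a peak is not given by the lists. The 5 widest members with both marks and no input peak measured 911, 672, 658, 579 and 571 bp in CT. The widest of them, at chr10:40911731-40912641, had a KD peak of 923 bp and an OE peak of 525 bp. The L1-like one, at chr9:134587272-134587842 with 571 bp, was narrower in both, with a KD peak of 231 bp and an OE peak of 276 bp. The tandem one at chr9:60653319-60653976 with 658 bp went opposite ways, with a KD peak of 311 bp and an OE peak of 1256 bp.

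As called, the marks that chose the members were narrow peaks under the CTCF peak. The H3K9me3 peaks at the 540 members with this mark had a median width of 214 bp and the widest measured 641 bp, and the median distance between the centres of mark and CTCF peak was 32.25 bp. The H3K27me3 peaks at 259 members had a median width of 180 bp. Narrow peaks were not particular to the members: over the whole CT lists the median width was 170.5 bp for H3K9me3 and 204 bp for H3K27me3. At the centre of tandem members 76.3% lay under an H3K9me3 CT peak, whereas between 1 and 5 kb away the mean was 1.08%. For L1-like members these values were 84.9% and 0.158%. Other H3K9me3 peaks within 10 kb were present at 272 of 375 tandem members but at 21 of 146 L1-like and 5 of 65 low-repeat members. Outside the tandem arrays a member thus mostly had no other called H3K9me3 peak within 10 kb. Whether it lay in a wider marked region cannot be told, because the lists do not show marking that was not called as a peak. At low-repeat members the H3K9me3 peaks were the narrowest, with a median of 163 bp where the narrowest H3K9me3 CT peak measured 161 bp, and they covered a median of 55.5% of the CTCF peak, against 72.9% in tandem and 78.1% in L1-like members. The antibodies given for H3K9me3 and H3K27me3 are exchanged between the labels and the methods, so each list is taken here for the mark that its title names.

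**Figure D3:**
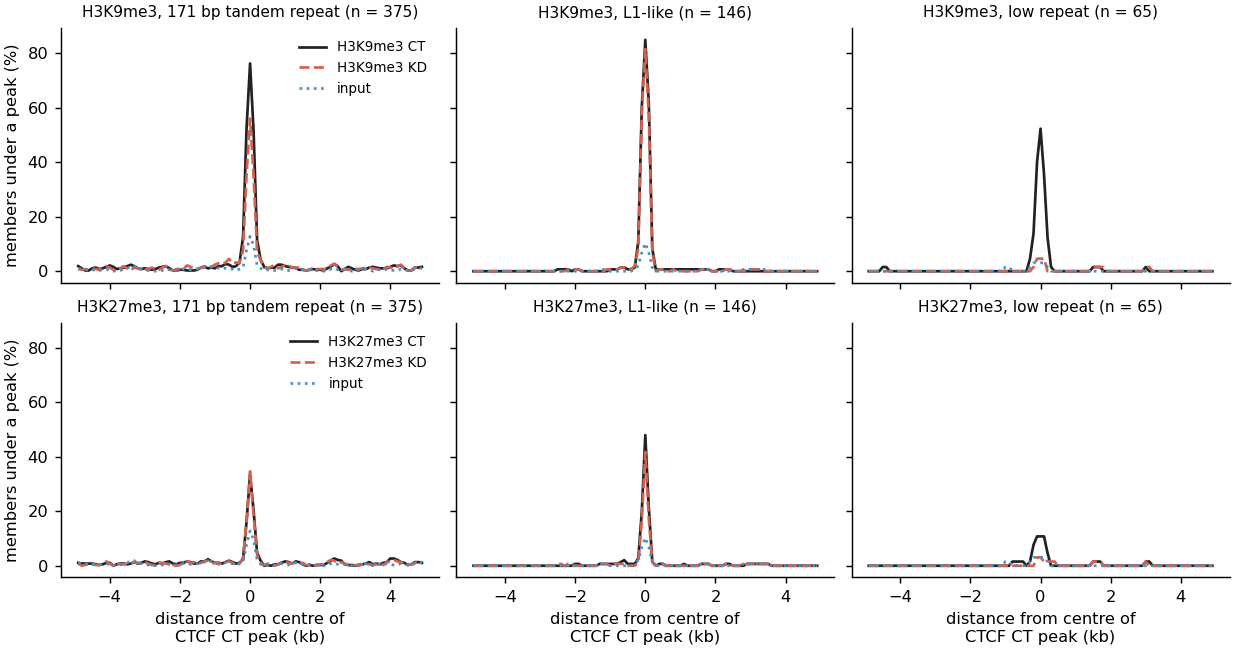
Share of members (vertical axis, %) under a peak of each list by distance from the centre of the CTCF CT peak (horizontal axis, kb), for H3K9me3 (top) and H3K27me3 (bottom) in 3 sequence classes; solid lines are CT, dashed lines KD and dotted lines input. The CT lines chose the members. Between 1 and 5 kb from the centre no line exceeded 2.67%, and at low-repeat members the KD line reached 4.62% for H3K9me3 where CT reached 52.3%.

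The KD histone lists were not used by the rule, but the CTCF KD list was. Members had to overlap a CTCF peak in KD, whereas marked peaks that were not constitutive lacked one in KD or OE. Comparisons of members with those peaks in the KD lists are thus in part set by the rule. Of all members, 64.6% overlapped an H3K9me3 KD peak, against 10.1% of all CT peaks, and 37.6% an H3K27me3 KD peak, against 7.49% of all CT peaks. This contrast is in part set by the rule, which asked for a repressive mark in CT. By it 89.0% of members had H3K9me3 in CT, against 10.6% of all CT peaks. Of the 540 members with H3K9me3 in CT, 357 overlapped an H3K9me3 peak in KD, or 66.1% (exact 95% interval 61.9 to 70.1). The share was 31.5% of all 14546 H3K9me3 CT peaks and 11.5% of the 9920 that overlapped no CTCF CT peak. It was 44.3% at marked CT peaks that were not constitutive, which is 21.8 percentage points lower (95% interval 17.0 to 26.6), and 93.3% at constitutive peaks with H3K9me3 and H3K4me3. Members minus the latter gave -27.2 points (-31.3 to -23.1). These intervals take peaks as units and cover counting error only, and since repeats share sequence they are too narrow.

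The classes differed widely in this measure. H3K9me3 was found in KD at 124 of 137 L1-like members, or 90.5%, at 219 of 334 tandem members, or 65.6%, and at 3 of 53 low-repeat members, or 5.66% (exact 95% interval 1.18 to 15.7). L1-like exceeded tandem members by 24.9 percentage points (95% interval 17.9 to 32.0), and low-repeat minus tandem members gave -59.9 points (-68.0 to -51.9). Within tandem and L1-like sequence the members stood above the marked peaks that were not constitutive, a contrast in part set by the rule. The difference was 27.8 points in tandem repeats (20.8 to 34.8) and 39.6 points in L1-like sequence (33.6 to 45.7). The H3K9me3 peak list was also shorter in KD, with 8356 peaks against 14546 in CT, and the low-repeat members had the narrowest CT peaks of the mark. How far these parts contribute was not tested.

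For H3K27me3 the classes fell in the same order with wider intervals. Unlike for H3K9me3, the members did not exceed the CT peaks of the mark as a whole. Of the 259 members with this mark in CT, 144 overlapped an H3K27me3 KD peak, or 55.6% (exact 95% interval 49.3 to 61.7). The share was 61.7% of all H3K27me3 CT peaks, 36.8% of those that overlapped no CTCF CT peak and 39.3% at marked peaks that were not constitutive. The share was 65.4% in L1-like, 56.0% in tandem and 13.3% (2 of 15) in low-repeat members. The difference of 9.41 points between L1-like and tandem members had an interval from -3.67 to 22.5, so they are not told apart. An H3K27me3 KD peak was found at 84 of the 348 members chosen by H3K9me3 alone, and an H3K9me3 KD peak at 35 of the 67 chosen by H3K27me3 alone.

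**Figure D4:**
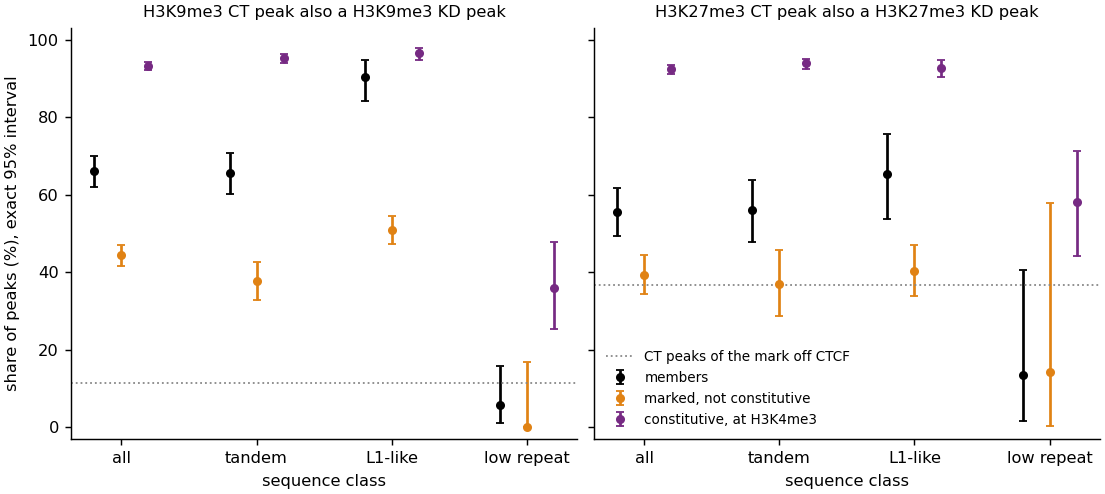
Share of CT peaks with H3K9me3 (left) or H3K27me3 (right) with a peak of that mark in KD too (vertical axis, %, with exact 95% intervals), by sequence class, for members, marked peaks that were not constitutive and constitutive peaks at H3K4me3; the dotted line is the share among peaks of the mark that overlap no CTCF CT peak. Members lay between both other lists in tandem and L1-like sequence, and low-repeat members were at 5.66% for H3K9me3.

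H3K4me3 in KD was also measured independently, although the rule had removed every peak with H3K4me3 in CT. Of the members 155, or 25.5%, overlapped an H3K4me3 KD peak, against 27% of all CT peaks. Constitutive peaks without a mark, which had likewise been freed of H3K4me3 in CT, overlapped it in 12.5%. The members exceeded them by 13.0 percentage points (95% interval 9.48 to 16.6), but 94.1% of these peaks were low-repeat, against 10.7% of members. Within tandem repeats the excess was 12.3 points (7.05 to 17.6). In L1-like sequence 41.8% of members and 17.8% of these peaks overlapped it, and the interval of the difference was 10.3 to 37.7 points. In low-repeat sequence the difference was 2.80 points, and its interval did not exclude equal shares. Among members the share was 41.8% in L1-like, 15.4% in low-repeat members and lay between them in tandem members (75 of 375). In members with both repressive marks it was 43.2% (83 of 192), in those with H3K27me3 alone 38.8% (26 of 67) and in those with H3K9me3 alone 13.2% (46 of 348).

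Input peaks, which mark sites enriched without an antibody, overlapped 72 of the 607 members, or 11.9% (exact 95% interval 9.40 to 14.7), against 4.33% of all CT peaks. The share was 0.220% at constitutive peaks without a mark, 2.32% at marked peaks that were not constitutive and 17.4% at constitutive peaks with H3K4me3. In tandem and L1-like sequence the members lay below the H3K4me3 peaks: in tandem repeats 13.9% of members and 71.3% of H3K4me3 peaks overlapped input, and in L1-like sequence 11.6% and 53.1%. They lay above the marked peaks that were not constitutive, by 10.2 percentage points in tandem repeats (95% interval 6.27 to 14.1) and by 9.93 points in L1-like sequence (4.65 to 15.2). Low-repeat members overlapped input in 2 of 65, or 3.08%, against 0.439% of low-repeat peaks at H3K4me3, and the interval of this difference included 0 (2.64 points, -1.56 to 6.84). Input overlap differed between mark classes: 20.8% of members with both marks overlapped it (exact 95% interval 15.3 to 27.3), against 6.90% of those with H3K9me3 alone (4.47 to 10.1). With H3K27me3 alone it was 11.9% (8 of 67, 5.30 to 22.2), an interval that overlaps both others. Without the members that overlap input, 535 were left, of which 476 had H3K9me3 in CT. Of these 476, 63.2% had H3K9me3 in KD, in place of 66.1% of 540. The share was 62.3% in tandem (180 of 289) and 90.9% in L1-like members (110 of 121) with H3K9me3 in CT. The part of input enrichment in the shared peaks was not tested otherwise.

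**Figure D5:**
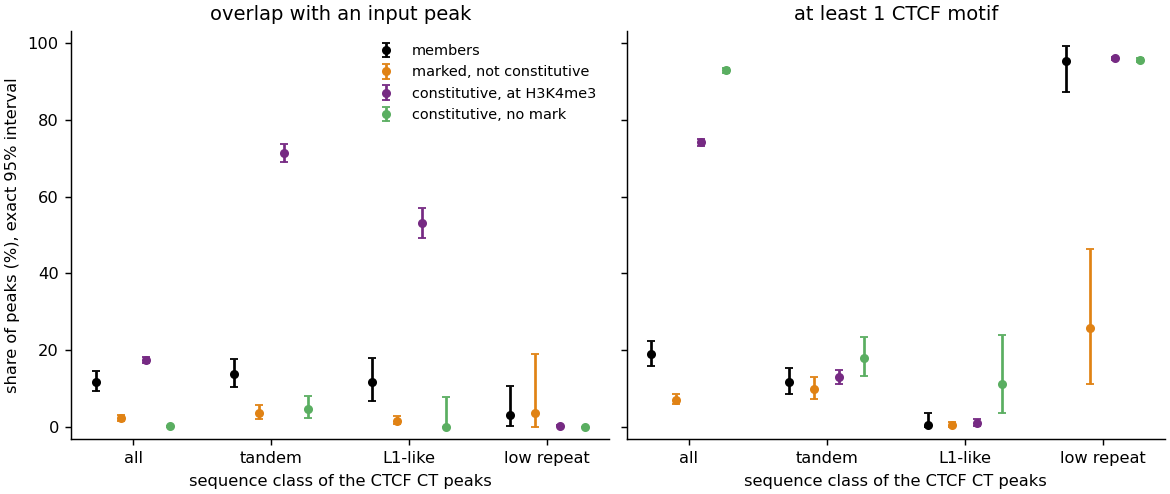
Share of CT peaks (vertical axis, %, with exact 95% intervals) that overlapped an input peak (left) and that held at least 1 CTCF motif (right), by sequence class, for members and 3 other lists of CT peaks. In tandem and L1-like sequence input overlap was highest at constitutive peaks with H3K4me3, at 71.3% and 53.1%, and motifs were frequent in low-repeat members (95.4%) and rare in tandem and L1-like members.

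The CTCF motif was searched with a matrix of 15 columns learned from 12806 repeat-masked peaks that overlap no member, on both strands and at a site p below 0.0001. It was present in 115 members, or 18.9% (exact 95% interval 15.9 to 22.3), against 46.7% of all CT peaks and 92.8% of constitutive peaks without a mark. The difference to the latter was -73.9 percentage points (95% interval -77.0 to -70.7). By class, 62 of 65 low-repeat members held a motif, 44 of 375 tandem members, 1 of 146 L1-like members and 8 of 21 members in other repeats. Within a class the differences to other lists varied. Low-repeat members differed from low-repeat constitutive peaks without a mark by -0.108 points (-5.23 to 5.01), and tandem members from tandem peaks at H3K4me3 by -1.29 points (-4.97 to 2.39), and both intervals include 0. Low-repeat members held a motif more often than low-repeat marked peaks that were not constitutive (25.9%), by 69.5 points (52.2 to 86.8). Against constitutive peaks without a mark, tandem members differed by -6.14 points (-12.0 to -0.256) and L1-like members by -10.4 points (-19.7 to -1.15).

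The sites are shown because they set the repeat members apart from the low-repeat ones. Each has 15 bases of site in capitals and 15 bases on either side, in the direction of the motif. The first 3 are sites of tandem members that overlapped no input peak and had their mark in KD too, in order of score, 1 of each sequence.
chr18:19531272-19531316 (-): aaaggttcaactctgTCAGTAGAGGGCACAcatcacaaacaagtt
chr19:25241648-25241692 (-): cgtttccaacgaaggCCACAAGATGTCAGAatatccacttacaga
chr11:51375293-51375337 (+): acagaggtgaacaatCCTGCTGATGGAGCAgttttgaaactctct
The site on chromosome 19 was the most common one. The same 15 bases were the best site of 27 of the 44 tandem members with a motif, and the whole stretch of 45 bases recurred without a change in 3 more chr19 members and 2 chr5 members of the 12 with the highest scores. Its score was 13.8, where 8.19 passed. In the stretch shown it is preceded by the end of a CENP-B box read on the other strand. Of 31 tandem members with both a motif and a box, 24 had 2 bases between them. In all, 17 members had a motif, no input peak and their mark in KD, and none of the 17 was L1-like or low-repeat.

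The sites of low-repeat members had higher scores. The 4 below were chosen for their scores after the values had been seen, leaving out members in exons.
chr2:242182138-242182182 (+): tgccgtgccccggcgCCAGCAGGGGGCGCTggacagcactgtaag
chr2:177335123-177335167 (+): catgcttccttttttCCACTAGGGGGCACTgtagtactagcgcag
chr17:41738149-41738193 (+): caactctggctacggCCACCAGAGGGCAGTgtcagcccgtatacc
chr9:100714783-100714827 (+): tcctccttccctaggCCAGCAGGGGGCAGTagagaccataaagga
Their scores were 23.3, 23.2, 22.5 and 22.2. The median best score over the low-repeat members was 16.8, against 17.3 in low-repeat constitutive peaks without a mark and 17.5 in those at H3K4me3. The member on chromosome 2 at 177335045 to 177335359 lies in an intron of NFE2L2, the transcription factor of the oxidative stress response. Its CT peak measured 315 bp, its KD peak 376 bp and its OE peak 345 bp. It overlapped H3K9me3 in CT over its last part and had neither mark in KD. Other low-repeat members lay in STAT6 (chr12:57124376-57124797), a transcription factor of interleukin signalling, and in IGF2R (chr6:160088328-160088716), the receptor that clears insulin-like growth factor 2. Each had H3K9me3 in CT and no repressive mark in KD. This was not particular to these genes, since only 3 of the 65 low-repeat members had a repressive mark in KD. In STAT6 the H3K9me3 CT peak spanned bases 57124251 to 57124412 and ended before the best CTCF site, at 57124446 to 57124460.

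Only 3 low-repeat members had both marks in CT, and the same 3 were the ones with H3K9me3 in KD. The ones named here were chosen after their values were seen. The member at chr4:82904695-82904991 overlaps a UTR of THAP9, a gene derived from a DNA transposase, had both marks in KD, no input peak and no CTCF motif. The member at chr3:88055503-88056017 overlaps a UTR of CGGBP1 itself, the gene that the study silenced and overexpressed, and had a CT peak of 515 bp, a KD peak of 348 bp and an OE peak of 581 bp. It overlapped H3K9me3 in both conditions, H3K27me3 in CT alone and an input peak, and it had no CTCF motif. Without the members that overlap input, 63 low-repeat members were left. Of the 51 of these with H3K9me3 in CT, 1 had H3K9me3 in KD.

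The repeat-masked lists of the same CTCF libraries, which share their reads with the rule, held few members. Of the 607, 57 overlapped a repeat-masked CT peak, or 9.39%, against 34.9% of all CT peaks, 59 a KD peak and 59 an OE peak. No tandem and no L1-like member overlapped any of the 3 lists. Their reads were aligned to hg38 with repeats masked, so peaks inside repeats were largely excluded in advance. Outside the members, 0 of 642 L1-like peaks at H3K4me3 overlapped the CT list, as did 0 of 817 marked ones that were not constitutive. Without a mark it was 3 of 45, and among tandem peaks at H3K4me3 20 of 1482. Low-repeat members overlapped the CT, KD and OE lists in 53, 58 and 55 of 65, and 52 overlapped all 3.

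By GENCODE annotation, 461 of the 590 members on main chromosomes were intergenic, or 78.1%. The share was 63.9% at marked peaks that were not constitutive, 49.9% at constitutive peaks with H3K4me3 and 36.0% at those without a mark. All 364 tandem members there were intergenic, 77 of 141 L1-like members lay in introns (54.6%), and 22 of 64 low-repeat members did (34.4%). Tandem and L1-like peaks of the other lists were alike. Tandem peaks at H3K4me3 were intergenic in 99.6%, and L1-like peaks lay in introns in 55.4% at H3K4me3, 48.9% without a mark and 50.5% when marked and not constitutive. Low-repeat peaks did so in 40.0%, 52.4% and 66.7%. Overlap with a UTR was found for 8 members, all low-repeat, and 18 members lay within 1000 bp of a transcription start, 12 of them low-repeat. At constitutive peaks with H3K4me3, likewise, 633 of the 641 with a UTR were low-repeat. Among gene families known for clustered genes, 1 member lay in a ZNF gene, an intron of ZNF44 (chr19:12255855-12256071, in another repeat, without motif). No member lay in a PCDH, HOX, OR, DUX4, USP17L, FRG or ANKRD gene. Constitutive peaks without a mark lay in PCDH genes in 0.0809%, in ANKRD genes in 0.127% and in ZNF genes in 0.520%, shares too low for any difference to be read from 607 members.

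At the border of the rule, the smallest overlaps of a member were 61 bp with a KD peak, 7 bp with an OE peak and 6 bp with a repressive mark. The nearest peaks outside it missed a KD peak by 19 bp, an OE peak by 51 bp and a repressive mark by 1 bp, and the smallest H3K4me3 overlap that removed a peak was 14 bp. The nearest H3K4me3 peak to a member was 24 bp away, and 35 of 601 members had one within 1 kb.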

How the data were processed

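CTCF was measured by ChIP-seq in CT, KD and OE, and H3K4me3, H3K9me3 and H3K27me3 in CT and KD, with 1 library per condition and 1 input library. Per the methods, the authors mapped single-end Ion Torrent reads with Bowtie2 to masked and unmasked hg38 and ran MACS2 on every library separately to obtain peaks. The deposited values are peak positions, and other values such as scores are not used here. The threshold on p is stated as 0.005 for unmasked reads in the methods, whereas the labels give 0.0025 for CTCF in CT and KD, 0.005 in OE and 0.001 for histones and input. Starts were read as counted from 0 and printed from 1, and a doubt of 1 bp remains, since the smallest width in the unmasked CTCF lists is then 199 bp, below the stated minimum of 200. Read depth behind a peak is not known from the lists.

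The members, lists and comparisons were chosen with earlier results of these data known, and the sequence classes were set after seeing the data. A peak overlapped another from 1 bp. Repeated bases are those in 24-mers with at least 10 occurrences in hg38 (455 sequences) on either strand. The motif matrix was learned from repeat-masked CT peaks shared with KD and OE, after leaving out 53 that overlap members. The L1-like element was aligned with blastn (BLAST+ 2.17.0). Genes are from GENCODE 44. Shares have exact Clopper-Pearson 95% intervals and differences normal 95% intervals, with peaks as units (Python 3.11.15, scipy 1.17.1). Computations were tested on simulated data. Most loci were named by fixed rules: the 5 largest clusters, the 12 best-scoring motif members with their mark in KD and no input, the 5 widest members with both marks and no input, members in gene families, and the rule's edges. The low-repeat sites shown and the low-repeat members named by gene fall outside these rules and were not set in advance. The 6 lists of exclusive peaks were not used here. Some named loci and sequences are not reported here.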

Additional observations from a re-analysis of the deposited data

How the results depend on the processing

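Of 46 values set as alternatives over 7 results, 33 stayed within 1.5 times of the count of members, within the exact 95% interval of the share reported or, for repeated bases, within 1 percentage point, and so did 8 of 8 added after the data were seen (the limits of the sequence classes, and H3K9me3 in KD by class without input members or with a KD peak within 200 bp). In this section H3K9me3 in KD is the share of the members with H3K9me3 in CT. With an overlap with KD alone required, there were 974 members, input overlap was 8.01%, repeated bases 92.3%, H3K9me3 in KD 60.9% and overlap with repeat-masked CT peaks 6.26%. With at least 0.5 of the CTCF peak covered by the mark, motifs were in 14.3%, repeated bases 92.9%, H3K9me3 in KD 70.4% and repeat-masked overlap 6.11%, and low-repeat members fell from 65 to 33. With at least 0.5 of both CTCF peaks covered by their overlap, repeated bases were 86.9%, and counted from 100 occurrences they were 86.0%. Motifs were in 15.3% at a site p below 0.00001 and in 7.74% by the consensus with at most 1 mismatch. The cause of these shifts was not tested. Leaving out a library was not possible with 1 per condition.

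The 24-mer measure misses old repeats, positions within modelled arrays are positions in the model, and the lists give neither scores nor read counts, so a peak near its threshold is not told apart from a strong one. No paired analysis was possible because each condition has 1 library.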
